A study of Mus musculus with 8 samples.

Results

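The 9 megakaryocyte and platelet genes Pf4, Ppbp, Itga2b, Itgb3, Thbs1, Vwf, Gp9, F2rl2 and Mrvi1 were followed through 8 libraries of mouse erythroid cells. They were taken as a list and matched by symbol to Ensembl IDs. All 9 had counts in every library and passed the filter on low counts, among 37620 gene IDs in all. Some were listed because they were higher with the Bloodlinc vector, so their values in that pair are a description and carry no test.

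The libraries came from erythroid progenitors of C57BL/6 fetal livers at E14.5, isolated by magnetic sorting, transduced and cultured with erythropoietin for 24 h before total RNA without ribosomal RNA was sequenced. In the Bloodlinc knockdown, 2 hairpins against the long noncoding RNA Bloodlinc (1 library each) were set against 1 control hairpin library. In the overexpression pair, 1 library with a Bloodlinc vector was set against 1 with an empty vector. In the hnRNPU knockdown, 2 hairpins against the nuclear RNA-binding protein gene Hnrnpu (1 library each) were set against another control hairpin library. All 8 libraries thus came from transduced cells. The labels give neither the number of embryos behind a library nor whether the hairpins were tried in independent cultures, so a p-value here reflects the spread between these libraries, which may be technical.

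Megakaryocytes share a progenitor with red cells, and fetal liver makes both lineages side by side. Mature megakaryocytes fill alpha granules with chemokines and adhesive proteins, place integrin and glycoprotein complexes on their surface and release platelets. In bulk RNA, fewer cells of a type and less RNA per cell cannot be told apart, which applies to every level given here.

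Erythroid markers were abundant in every library. The 12 of the list, globins and band 3 among them, summed to between 24007 and 107043 CPM (counts scaled to library size by TMM, edgeR's trimmed mean of M-values), and none was at 0 in any library. The 9 platelet genes summed to between 127.6 and 860.0 CPM. Counts in genes ran from 23682993 to 34540691 in 6 libraries, but were only 2931627 and 2612916 with hnRNPU hairpins 1 and 2, where 89.7% and 86.6% of uniquely placed counts lay outside genes. By a floor of 3 counts, a count of 0 allows up to 1.77 and 1.18 TMM CPM with hnRNPU hairpins 1 and 2, and at most 0.154 TMM CPM in the other 6 libraries. The targeted transcripts did not pass edgeR's quasi-likelihood test: Bloodlinc had 2.19 and 1.75 CPM with its hairpins, where the control had 4.46 CPM (adjusted p = 1), and Hnrnpu had 325 and 373 CPM with its own, where the control had 588 CPM (adjusted p = 0.73). With the Bloodlinc vector, Bloodlinc was at 5.46 CPM on 250 counts, against 1.26 CPM on 52 counts with the empty vector. The Bloodlinc and hnRNPU control hairpin libraries had 4.46 and 4.35 CPM, so the vector library lay only a little above them. The empty vector library lay below both Bloodlinc hairpin libraries.

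The genome positions of the genes are given here, and any bearing of position on their levels was not tested. On GRCm38, Ppbp (ENSMUSG00000029372, chromosome 5, 90768518 to 90770063, plus strand) ends 2371 bp before Pf4 (ENSMUSG00000029373, 90772435 to 90773383, plus strand). Itga2b (ENSMUSG00000034664, chromosome 11, 102453297 to 102470122, minus strand) lies 76276 bp from Bloodlinc itself, with 4 protein-coding genes between them. Of the other 6 genes, Itgb3 (ENSMUSG00000020689) lies on the same chromosome from 104608000 to 104670476 on the plus strand. Thbs1 (ENSMUSG00000040152) lies on chromosome 2 from 118111876 to 118127133, plus strand. Vwf (ENSMUSG00000001930, 125546774 to 125686679) and Gp9 (ENSMUSG00000030054, 87778072 to 87779768) both lie on the plus strand of chromosome 6. F2rl2 (ENSMUSG00000021675) lies on chromosome 13 from 95696853 to 95702739, plus strand, and Mrvi1 (ENSMUSG00000005611) on chromosome 7 from 110868266 to 110982461, minus strand. These positions come from GENCODE M21 and were not used for counting, since the submitters' processing notes name mm9.

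RefSeq promoter entries (GRCm38.p6) matched 6 of the 9 genes: Pf4, Ppbp, Itga2b, Gp9, F2rl2 and Mrvi1. The 250 bases before the RefSeq start of the neighbours Pf4 and Ppbp, and of Gp9, are printed here, 5′ to 3′ on the strand of the gene. They overlap no annotated exon. Capitals mark matches to motifs named for factor families that act in erythroid and megakaryocytic cells, read on either strand. The letters taken as an ETS motif were AGGAAG, besides the form CGGAAG. For RUNX they were TGTGGT, besides the form TGCGGT, and for NF-E2/AP-1 they were TGAGTCA. For GATA they were AGATAA, besides the forms AGATAG, then TGATAA and finally TGATAG.
Pf4 chr5:90772185-90772434 plus strand: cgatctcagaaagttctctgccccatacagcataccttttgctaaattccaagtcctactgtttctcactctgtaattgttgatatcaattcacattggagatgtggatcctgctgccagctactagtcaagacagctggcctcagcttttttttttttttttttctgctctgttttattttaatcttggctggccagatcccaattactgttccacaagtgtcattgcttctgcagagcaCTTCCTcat
Ppbp chr5:90768268-90768517 plus strand: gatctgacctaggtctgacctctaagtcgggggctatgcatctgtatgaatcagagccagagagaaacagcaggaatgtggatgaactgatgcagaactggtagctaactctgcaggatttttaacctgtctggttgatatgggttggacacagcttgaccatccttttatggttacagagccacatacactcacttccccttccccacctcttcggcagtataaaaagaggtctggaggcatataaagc
Gp9 chr6:87777820-87778069 plus strand: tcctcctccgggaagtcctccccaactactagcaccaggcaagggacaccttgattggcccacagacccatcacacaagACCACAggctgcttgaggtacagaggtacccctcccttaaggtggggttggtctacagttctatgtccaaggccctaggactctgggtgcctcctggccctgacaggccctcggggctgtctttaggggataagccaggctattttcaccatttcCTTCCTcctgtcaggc
Pf4 had 1 ETS match, which ends 4 bases before its start, and Gp9 had 1 ETS and 1 RUNX match. Ppbp had no match to any of the 4 motifs in its 250 bases. Among the entries not printed, F2rl2 had 1 ETS, 1 GATA and 1 NF-E2/AP-1 match, and Itga2b had 2 ETS matches. Annotated exons cover 67 of the 250 bases for F2rl2 and 180 for Itga2b. For Mrvi1, 1 entry had an ETS match and another a GATA match. No match here overlapped another. Over 32851 RefSeq promoter windows of 250 bases, 39.2% held an ETS match, 26.5% a GATA match, 18.6% a RUNX match and 4.46% an NF-E2/AP-1 match. A match is a description of these letters, not a bound site.

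Levels can be compared between genes once divided by exon length. Averaged over the 8 libraries, Thbs1 stood highest at 24.5 CPM per kb of exon, followed by Pf4 (14.4), Itgb3 (8.80), Itga2b (7.21), Gp9 (4.46), F2rl2 (3.14), Ppbp (2.89), Vwf (1.02) and Mrvi1 (0.759), all in CPM per kb. Without hnRNPU hairpin 1 the means were 13.8 for Thbs1 and 13.5 for Pf4. Pf4 stood above Thbs1 in the vector pair, at 32.5 against 15.5 CPM per kb with the Bloodlinc vector and 20.4 against 10.8 CPM per kb with the empty vector. The order was loose: the ranges over the libraries of every pair of neighbours in it overlapped, for instance 7.07 to 99.2 CPM per kb for Thbs1 and 5.26 to 32.5 CPM per kb for Pf4. All further levels are TMM CPM per library, not divided by length.

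**Figure D1:**
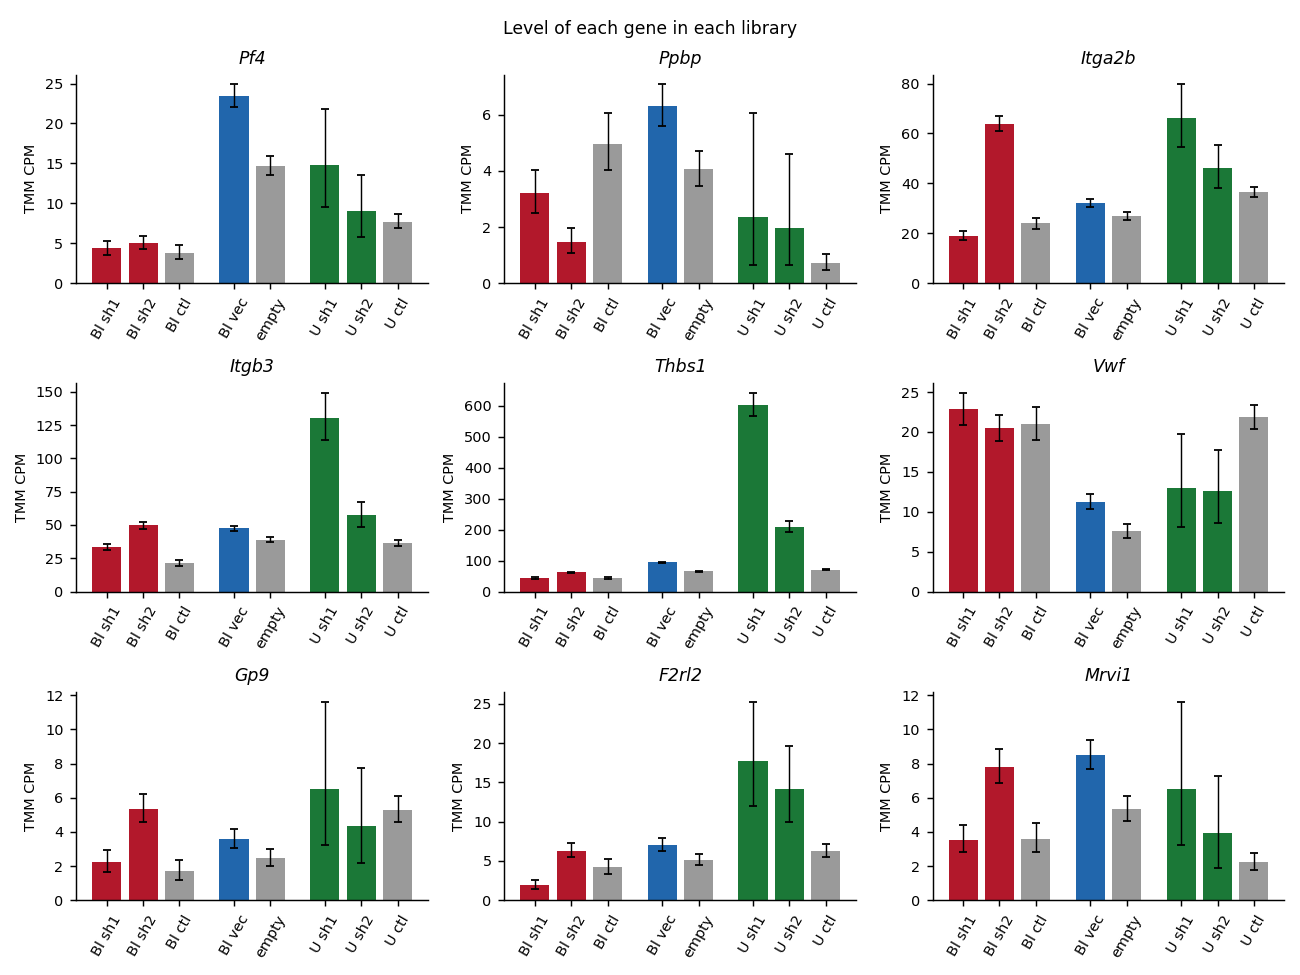
TMM CPM (linear axis from 0) of the 9 genes in the 8 libraries, with 95% exact Poisson intervals of the count as bars of counting error. Bl stands for Bloodlinc, U for hnRNPU, sh1 and sh2 for hairpins 1 and 2, vec for vector and ctl for the control hairpin, and grey bars are controls. Thbs1 reached 602 CPM with hnRNPU hairpin 1, while Pf4 was highest with the Bloodlinc vector at 23.4 CPM.

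Among the alpha granule proteins, Pf4 encodes platelet factor 4, a chemokine that binds heparin. Pf4 stood at 4.38 and 4.99 CPM with Bloodlinc hairpins 1 and 2 against 3.79 CPM in their control. It stood at 23.4 CPM with the Bloodlinc vector against 14.7 CPM with the empty vector, and at 14.8 and 9.06 CPM with the hnRNPU hairpins against 7.71 CPM. The 3 libraries of the Bloodlinc knockdown were thus all lower in Pf4 than the other 5 libraries, and the 3 control libraries alone spanned 3.87-fold.

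Ppbp encodes pro-platelet basic protein, the precursor of further platelet chemokines. Ppbp stood at 3.20 and 1.46 CPM with the Bloodlinc hairpins against 4.97 CPM in their control. It was at 6.31 CPM with the Bloodlinc vector against 4.06 CPM with the empty vector. With the hnRNPU hairpins it was at 2.36 and 1.97 CPM, on 4 and 5 counts, against 0.708 CPM on 27 counts. The chemokine genes are neighbours, and their count ratio, Pf4 over Ppbp, was 1.37 and 3.42 with the Bloodlinc hairpins against 0.763 in the control. The ratio was 3.71 with the Bloodlinc vector against 3.61 with the empty vector, and 6.25 and 4.60 with the hnRNPU hairpins against 10.9 in that control.

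Thbs1 encodes thrombospondin 1, an adhesive protein that platelets store and that endothelial cells, fibroblasts and macrophages also make. Thbs1 stood at 43.9 and 61.9 CPM with the Bloodlinc hairpins against 43.0 CPM, at 94.2 CPM with the Bloodlinc vector against 65.4 CPM, and at 602 and 208 CPM with the hnRNPU hairpins against 70.8 CPM. Vwf encodes von Willebrand factor, which tethers platelets to injured vessels and is made by endothelium as well. Vwf stood at 22.8 and 20.5 CPM with the Bloodlinc hairpins against 21.0 CPM, at 11.3 CPM with the Bloodlinc vector against 7.57 CPM, and at 13 and 12.6 CPM with the hnRNPU hairpins against 21.9 CPM. Vwf was lowest in the vector pair, where Pf4 was high, and over the 8 libraries the log2 levels of Pf4 and Vwf had r = −0.82.

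Itga2b and Itgb3 encode the 2 chains of the platelet fibrinogen receptor. Itga2b, also a marker of early blood progenitors, stood at 18.9 and 63.9 CPM with the Bloodlinc hairpins against 24.0 CPM, at 32.0 CPM with the Bloodlinc vector against 26.9 CPM, and at 66.2 and 46.1 CPM with the hnRNPU hairpins against 36.5 CPM. Itgb3 stood at 33.6 and 49.6 CPM with the Bloodlinc hairpins against 21.5 CPM, at 47.5 CPM with the Bloodlinc vector against 38.8 CPM, and at 131 and 57.1 CPM with the hnRNPU hairpins against 36.5 CPM. Counts of Itga2b over Itgb3 ran from 0.507 with hnRNPU hairpin 1 to 1.29 with Bloodlinc hairpin 2. Gp9 encodes a subunit of the receptor complex for von Willebrand factor, and stood at 2.24 and 5.35 CPM with the Bloodlinc hairpins against 1.69 CPM, at 3.56 CPM with the Bloodlinc vector against 2.44 CPM, and at 6.50 and 4.33 CPM with the hnRNPU hairpins against 5.30 CPM.

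The remaining genes act in platelet signalling. F2rl2 encodes PAR3, which helps thrombin activate mouse platelets. It stood at 1.93 and 6.32 CPM with the Bloodlinc hairpins against 4.20 CPM, at 7.08 CPM with the Bloodlinc vector against 5.18 CPM, and at 17.7 and 14.2 CPM with the hnRNPU hairpins against 6.30 CPM. Mrvi1 encodes a substrate of cGMP-dependent kinase that restrains calcium release. It stood at 3.55 and 7.81 CPM with the Bloodlinc hairpins against 3.59 CPM, at 8.47 CPM with the Bloodlinc vector against 5.35 CPM, and at 6.50 and 3.94 CPM with the hnRNPU hairpins against 2.23 CPM. Across the 8 libraries, 5 of the 9 genes were highest with hnRNPU hairpin 1, 3 (Pf4, Ppbp and Mrvi1) with the Bloodlinc vector and 1 (Vwf) with Bloodlinc hairpin 1. The TMM factor of hnRNPU hairpin 1 was 0.577, which raises its CPM, so ranks of that library depend on the scaling.

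In the overexpression pair, which asked what more Bloodlinc does to these cells, all 9 genes were somewhat higher with the Bloodlinc vector and none by 2-fold. The ratios of CPM, Bloodlinc vector over empty vector, were 1.60 for Pf4 (95% exact conditional binomial interval 1.44 to 1.77), 1.59 for Mrvi1 (1.34 to 1.88) and 1.55 for Ppbp (1.28 to 1.89). They were lowest for Itgb3 at 1.22 (1.15 to 1.31) and Itga2b at 1.19 (1.10 to 1.29). The interval lay above 1 for all 9 genes, and covers counting error only, since each arm is 1 library. Over all 15355 genes tested, 51.3% were higher by any amount, 14.1% had an interval above 1 and 0.371% were at least 2-fold higher. The median log2 difference was 0.53 for the 9 genes and 0.01 for all genes. Part of the list was chosen on this contrast, so nothing is read from these counts.

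Set against the other controls, the picture differed between genes. Of the 9 genes, 6 (Pf4, Ppbp, Itgb3, Thbs1, F2rl2 and Mrvi1) were higher with the Bloodlinc vector than in all 3 control libraries, against 17.5% of all genes. The empty vector is among these 3 controls, and part of the list was chosen for its rise over it. All 9 genes exceeded the empty vector, against 51.3% of all genes, so the 17.5% is not a like share. Nothing is read from this count. Vwf at 11.3 CPM with the Bloodlinc vector lay below both control hairpin libraries, at 21.0 and 21.9 CPM, and Itga2b and Gp9 lay below the hnRNPU control hairpin library. The 3 control libraries spanned at least 2-fold for 5 of the 9 genes, and for 62.5% of all genes. For Ppbp the span was 7.02-fold (0.708 to 4.97 CPM), and for all 9 genes the span exceeded the ratio of the vector pair. F2rl2, at 1.50-fold, and Itga2b, at 1.52-fold, had the narrowest spans.

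**Figure D2:**
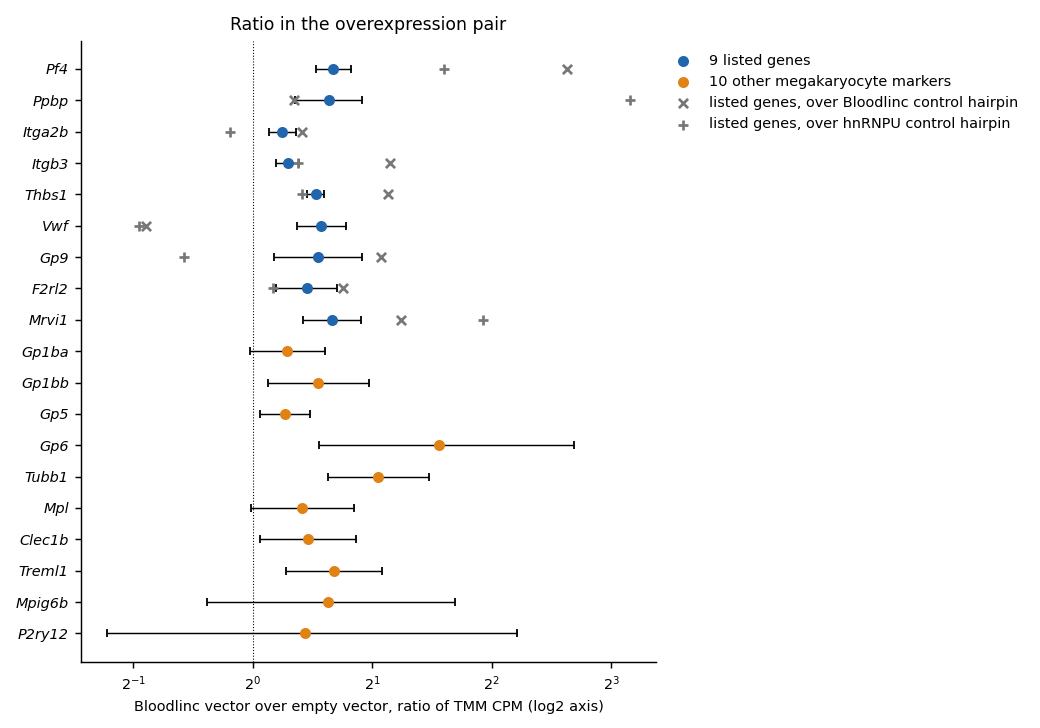
Ratio of TMM CPM, Bloodlinc vector over empty vector, on a log2 axis, for the 9 genes (blue) and 10 other megakaryocyte markers (orange), with bars for 95% exact intervals of counting error. Crosses and plus signs show the 9 genes in the Bloodlinc vector library over each control hairpin library. The ratios to the empty vector lie between 1.19 and 1.60 for the 9 genes, whereas those to the control hairpins scatter on both sides of 1.

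Other markers of megakaryocytes lay in the same direction in the vector pair. A second list of 10 markers, which does not repeat any of the 9 genes, was also chosen with earlier results of these data known. As each arm is 1 library, its counts are a description too. All 10 were higher with the Bloodlinc vector than with the empty vector, against 51.3% of all genes. Of these 10 markers, 6 had an interval above 1, against 14.1% of all genes, and none had an interval below 1. Their sum was 30.2 CPM with the Bloodlinc vector against 21.8 CPM with the empty vector, and their median log2 difference was 0.49. The only 2 of the 10 at least 2-fold higher were Tubb1, the platelet beta tubulin, with 158 counts against 69 (ratio 2.07, interval 1.55 to 2.78), and Gp6, the platelet collagen receptor, with 36 counts against 11 (ratio 2.95, interval 1.47 to 6.44). These 2 are named after their values were seen. Of the 10, 8 were higher with the Bloodlinc vector than in all 3 control libraries, against 17.5% of all genes. The empty vector is among these 3 controls and all 10 exceeded it, so the 17.5% is not a like share. Nothing is read from this count. At 3.45 CPM with the Bloodlinc vector, Tubb1 lay below both control hairpin libraries, at 5.89 and 5.90 CPM.

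Wider platelet lists had smaller median differences in that pair. Over all genes tested, 51.3% were higher with the Bloodlinc vector. In the lists these were 11 of 16 adhesion receptors, 15 of 25 granule genes and 21 of 34 agonist receptor and signalling genes. They were 14 of 16 cytoskeletal genes and 12 of 18 transcription factors. The list medians on the log2 scale were 0.35, 0.07, 0.06, 0.13 and 0.09 in that order, against 0.01 for all genes. Of the adhesion receptors, 7 are also among the 10 other megakaryocyte markers. In that list 1 gene was at least 2-fold higher and 1 at least 2-fold lower, against 57 and 212 of all 15355 genes. Summed adhesion receptors stood at 248.0 CPM with the Bloodlinc vector against 253.9 CPM with the empty vector. Gp5, a subunit of the receptor for von Willebrand factor, had a ratio of 1.21 (interval 1.04 to 1.40) and Actn1, an actin cross-linker, one of 1.28. The transcription factor genes Fli1 and Ikzf2 lay the other way, at ratios of 0.842 (interval 0.766 to 0.926) and 0.76 (interval 0.644 to 0.896).

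Markers of white blood cells and endothelium did not share that direction in the vector pair. Summed neutrophil granule markers stood at 989.7 CPM with the Bloodlinc vector against 1031 CPM with the empty vector, and macrophage markers at 19.1 CPM against 25.7 CPM. Of the tested macrophage markers 0 of 10 were higher, against 51.3% of all genes. Endothelial markers, which matter for Vwf and Thbs1, summed to 25.0 CPM with the Bloodlinc vector against 25.4 CPM with the empty vector. The 12 erythroid markers summed to 26320 CPM with the Bloodlinc vector against 24007 CPM with the empty vector. Of these 12, 11 were higher, against the same 51.3% of all genes. Both vector libraries held more neutrophil and hepatocyte marker RNA than the 3 libraries of the Bloodlinc knockdown, where neutrophil markers summed to between 43.2 and 104 CPM and hepatocyte markers to between 0.394 and 1.07 CPM, against 12.7 and 14.8 CPM of hepatocyte markers in the vector pair. The part of these cells in the difference of the platelet genes between the experiments was not tested.

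**Figure D3:**
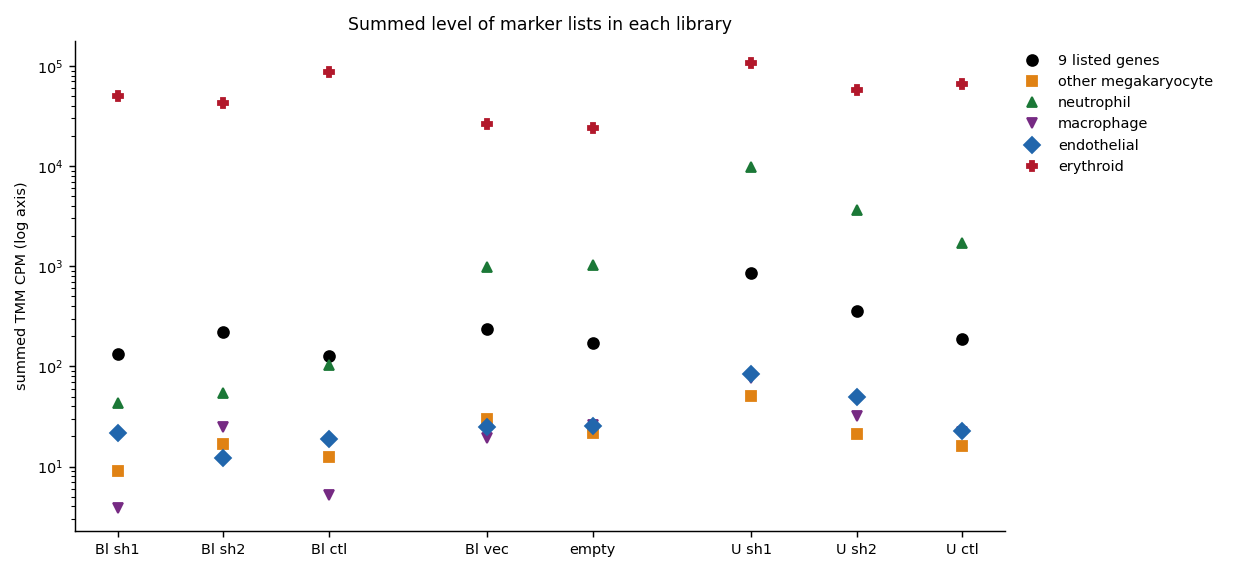
Summed TMM CPM (log axis) of the 9 genes and of marker lists for other cell types in each library, with library names shortened as in the plot of levels by library. The neutrophil sum reaches 9855 CPM with hnRNPU hairpin 1, against 1698 CPM in its control, and the 9 genes stand at 860.0 CPM there, against 188 CPM.

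In the Bloodlinc knockdown, which asked what changes when this RNA is targeted, none of the 9 genes passed the test. edgeR's quasi-likelihood test with Benjamini-Hochberg adjustment over all genes gave an adjusted p of 1 for each, and 19 of 15355 genes passed (0.124%). None of the 9 had an unadjusted p under 0.05, against 613 of all genes, and DESeq2 and limma-voom also called none of the 9. The largest values were 1.17 for Gp9 (SE 0.85), −1.10 for Ppbp (SE 0.80) and 0.95 for Itgb3 (SE 0.56) as log2 fold changes. The median of the 9 was 0.31, and 0.06 for all genes.

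The 2 Bloodlinc hairpins differed from each other for most of the platelet genes. Both stood above their control for Pf4, Itgb3, Thbs1 and Gp9, that is 4 of 9 genes against 31.5% of all genes. Both stood below it for Ppbp alone, 1 of 9 against 30.7% of all genes. Levels with hairpin 2 exceeded those with hairpin 1 for 7 of 9 genes (50.5% of all genes), and by at least 2-fold for 4 of 9 (20.6% of all genes). The ratio of hairpin 2 over hairpin 1 was 3.38 for Itga2b (interval 3.05 to 3.76), 3.28 for F2rl2 (2.35 to 4.66), 2.39 for Gp9 (1.74 to 3.34) and 2.20 for Mrvi1 (1.70 to 2.87). It was 0.897 for Vwf (0.798 to 1.01) and 0.456 for Ppbp (0.307 to 0.67).

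For Itga2b the direction rested on 1 hairpin: the log2 fold change of 0.79 (SE 0.56) became 1.44 without hairpin 1 and −0.34 without hairpin 2. F2rl2, at −0.02 (SE 0.71), became 0.61 without hairpin 1 and −1.12 without hairpin 2. Mrvi1, at 0.67 (SE 0.77), became 1.15 without hairpin 1 and −0.01 without hairpin 2. Against the control hairpin library of the hnRNPU experiment, Ppbp stood at 1.70, Pf4 at −0.72, Gp9 at −0.48 and Thbs1 at −0.42, so the signs of all 4 depended on which control was used. Itgb3 stood at 0.19 there and 0.42 against all 3 controls, and Mrvi1 at 1.35 and 0.70.

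Macrophage markers summed to 3.81 CPM with hairpin 1 and 25.0 CPM with hairpin 2, against 5.23 CPM in the control. The list did not move together, since only 4 of 10 tested markers stood above the control with hairpin 2. Their median log2 difference there was −0.22, and Vcam1, C1qa and Timd4 were at 0 with hairpin 2. Of these, Timd4 was at 0 in the control as well. Neutrophil markers summed to 43.2 and 54.6 CPM with the hairpins against 104 CPM, and endothelial markers to 21.5 and 12.2 CPM against 18.7 CPM. The endothelial markers Emcn and Cldn5 were at 0 in all 3 of these libraries. Erythroid markers summed to 49584 and 42715 CPM with the hairpins against 86285 CPM, with a median log2 fold change of −0.85. Both hairpins stood below the control, a single library, for 11 of 12 markers, against 30.7% of all genes. Of the 12 markers 0 passed, against 0.124% of all genes. The part of these cells in the platelet gene levels with the hairpins was not tested. The second megakaryocyte list summed to 9.12 CPM with hairpin 1 and 16.9 CPM with hairpin 2, where the control had 12.5 CPM.

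**Figure D4:**
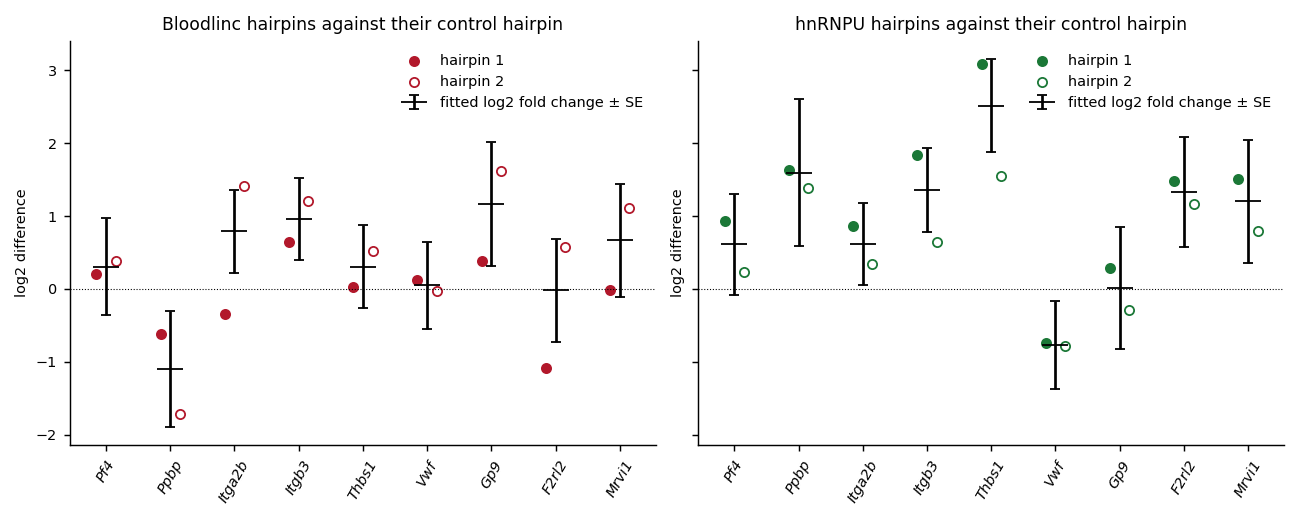
Log2 difference from the control hairpin library for the 9 genes in each knockdown, with filled points for hairpin 1, open points for hairpin 2, and a dash with bars for the fitted log2 fold change ± SE. In the Bloodlinc knockdown the points of Itga2b lie on both sides of 0, while in the hnRNPU knockdown both points of Thbs1 lie above it, at 3.09 and 1.56.

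Of the platelet genes outside the 9, none passed in the Bloodlinc knockdown by edgeR's test. These were 0 of 16 adhesion receptors, 0 of 25 granule genes, 0 of 34 signalling genes and 0 of 16 cytoskeletal genes. Likewise 0 of 18 transcription factors and 0 of the 10 other megakaryocyte markers passed. As 0.124% of all genes passed, a count of 0 in lists of this size says little. The list medians of the log2 fold change were 0.76, 0.46, 0.17, 0.32, 0.02 and 0.36 in that order, against 0.06 for all genes. Positive values were held by 12 of 16 adhesion receptors, 16 of 25 granule genes, 19 of 34 signalling genes and 10 of 16 cytoskeletal genes. They were held by 9 of 18 transcription factors and 6 of the 10 other markers, against 8213 of all 15355 genes. The single genes that follow were named for their high level, not their direction. The thrombospondin receptor gene Cd36 stood at −1.49 on the log2 scale (adjusted p = 0.673) in edgeR's fit. The shared regulators of red cells and megakaryocytes Nfe2 and Tal1 stood at −0.83 and −1.0, and also did not pass.

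In the hnRNPU knockdown, 1 of the 9 genes passed, Thbs1, which was higher. Thbs1 averaged 405 ± 279 CPM with the hairpins (SD, n = 2) against 70.8 CPM in the control, a log2 fold change of 2.51 (SE 0.64) with an adjusted p of 0.0172 in edgeR's quasi-likelihood test. Over all genes 135 of 15355 passed (0.879%), and 0.58% passed as higher. Hairpin 1 lay 8.50-fold above the control (interval 7.90 to 9.14) and hairpin 2 lay 2.94-fold above it (interval 2.68 to 3.23), so the hairpins agreed in direction and differed in size.

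The call of Thbs1 depended on single libraries. Without hnRNPU hairpin 1 its log2 fold change was 1.55 with an edgeR adjusted p of 1, and without hnRNPU hairpin 2 it was 3.08 with an edgeR adjusted p of 0.0463. Leaving out Bloodlinc hairpin 1 or 2, which only inform the spread, gave edgeR adjusted p-values of 0.107 and 0.0847. DESeq2 gave 0.00977 and limma-voom 0.274 as adjusted p, the limma-voom log2 fold change being 2.31.

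The other 8 genes did not pass. Their log2 fold changes were 1.59 for Ppbp (SE 1.01), 1.36 for Itgb3 (SE 0.57; edgeR adjusted p = 0.368), 1.34 for F2rl2 (SE 0.75; edgeR adjusted p = 0.582) and 1.20 for Mrvi1 (SE 0.84). They were 0.62 for Itga2b, 0.61 for Pf4, 0.01 for Gp9 and −0.77 for Vwf. Both hairpins stood above the control for 7 of 9 genes, against 28.6% of all genes, and both below it for Vwf alone, against 42.3%. The median of the 9 log2 fold changes was 1.20, and −0.09 for all genes. The value of Ppbp turned to −1.21 against the Bloodlinc control hairpin library and −0.18 against all 3 controls. Against the Bloodlinc control hairpin library, Itgb3 had a log2 fold change of 2.12 (edgeR adjusted p = 0.00597).

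The hnRNPU hairpin libraries held few counts, 1455 and 908 over all 9 genes, against 7163 in their control. Thbs1 had 1019 and 529 of these, and Gp9 had 11 in each. Summed markers of some other cells stood higher in the same 2 libraries. Beside the calls that follow, 0.58% of all genes passed as higher in this knockdown. Neutrophil markers summed to 9855 and 3628 CPM with the hairpins against 1698 CPM, and 3 of 10 rose: Ltf (log2 fold change 2.71, edgeR adjusted p = 0.0136), Ngp (2.73, edgeR adjusted p = 0.0151) and Lcn2 (2.31, edgeR adjusted p = 0.0347), all neutrophil granule proteins. Macrophage markers summed to 76.8 and 31.9 CPM against 22.2 CPM, with 0 of 10 called and C1qa, Cd163, C1qc and Timd4 at 0 in both hairpin libraries. Of these, C1qa and Timd4 were at 0 in the control as well. Endothelial markers summed to 83.9 and 50.0 CPM against 22.7 CPM, and 1 of 7 tested rose, the cell adhesion gene Esam, which platelets also express (28.4 and 21.3 CPM against 2.68 CPM, edgeR adjusted p = 0.0155). The endothelial markers Emcn and Cldn5 were at 0 in both hairpin libraries. Fibroblast markers summed to 2.36 and 4.33 CPM against 2.99 CPM, with the collagen gene Col3a1 at 0 in both hairpin libraries. Erythroid markers summed to 107043 and 58192 CPM against 65843 CPM. The part of these cells, and of the large share of counts outside genes, in the rise of Thbs1 was not tested.

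Among the wider platelet genes 1 rose in the hnRNPU knockdown, the granule list's Plek, which encodes pleckstrin, a kinase substrate of platelets and white blood cells. Plek stood at 239 and 87.5 CPM with the hairpins against 34.9 CPM (log2 fold change 2.22, SE 0.61, edgeR adjusted p = 0.0409). In the other lists 0 of 16 adhesion receptors, 0 of 34 signalling genes and 0 of 16 cytoskeletal genes passed. Neither did any of 18 transcription factors or of the 10 other megakaryocyte markers. As 0.879% of all genes passed, a count of 0 in lists of this size says little. The list medians of the log2 fold change were 1.37, 1.23, 0.89, 0.66 and 1.28 in that order, and 0.60 for the granule list. Positive values were held by 14 of 16 adhesion receptors, 29 of 34 signalling genes, 14 of 16 cytoskeletal genes and 13 of 18 transcription factors. They were held by 9 of the 10 other markers and 20 of 25 granule genes, against 7021 of all 15355 genes. Single genes were named for their high level, not their direction. Fermt3, an integrin activator, stood at −0.52 and Tln1, the integrin linker talin, at −0.32 on the log2 scale. Tal1 stood at −1.08 and Gp5 at 0.84, and none of these 4 passed.

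**Figure D5:**
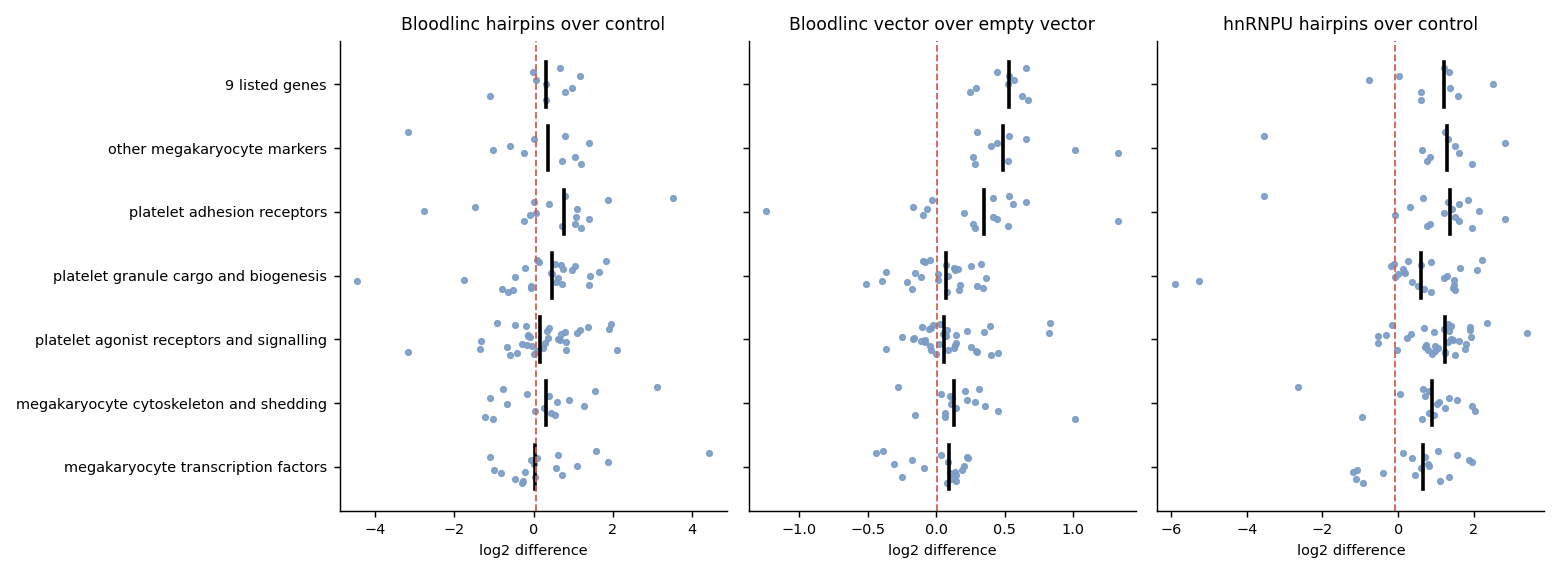
Log2 fold change or difference of each gene in the platelet lists for the Bloodlinc hairpins, the Bloodlinc vector and the hnRNPU hairpins, with a black bar for the median of a list and a red dashed line for the median of all genes tested. The medians of the 9 genes are 0.31, 0.53 and 1.20, against 0.06, 0.01 and −0.09 for all genes.

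The effects of the 2 knockdowns were also compared with each other. None of the 9 genes passed edgeR's test of the difference, hnRNPU effect minus Bloodlinc effect, which 50 of 15355 genes passed (0.326%). DESeq2 gave no adjusted p for Ppbp, Gp9, F2rl2 and Mrvi1 in this comparison and called none of the rest, and limma-voom called none of the 9. At an unadjusted p under 0.05 in edgeR's test stood 2 of the 9 genes and 631 of all genes. These were Thbs1, with a difference of 2.21 on the log2 scale (SE 0.81; edgeR adjusted p = 0.491), and Ppbp, with 2.69 (SE 1.29; edgeR adjusted p = 1).

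Over the 8 libraries the 9 genes did not move as a block. Of the 36 pairs of genes, 23 had a positive Pearson r of log2 CPM, with a median of 0.33. The highest values were 0.93 for Itgb3 and Thbs1, 0.89 for Itga2b and Gp9 and 0.89 for Thbs1 and F2rl2, while Ppbp and Gp9 had −0.67. The 8 libraries share experiments and differ in depth, so these values describe them only. The genes outside the list whose levels lay closest to the mean z-score of the 9 were Chka (r = 0.97), Glmp (0.95), Ifngr2 (0.95), Mob1b (0.95) and Sema4d (0.95), among genes of at least 5 CPM on average. Ifngr2 encodes a chain of the interferon gamma receptor, and Sema4d a semaphorin found on platelets and lymphocytes.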

How the data were processed

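Libraries of RNA depleted of rRNA marked strand with dUTP, per the labels' protocols. TopHat2 2.0.11, the build mm9 and HTSeq are named in the submitters' processing notes. The HTSeq version, annotation and strand setting are not given in the sources used here, so overlapping and antisense genes cannot be told apart. The authors deposited raw counts per gene for each library, with 37620 gene IDs and 5 summary entries, which were left out of the tests. The shares of counts outside genes come from those entries, and were 89.7% and 86.6% with the hnRNPU hairpins and 21.7% to 30.1% elsewhere.

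Symbols, positions and exon lengths came from GENCODE M21 on GRCm38, which named 87.4% of IDs. IDs without a symbol held 32.9% and 23.1% of counts in genes with hnRNPU hairpins 1 and 2, and 0.695% to 1.45% elsewhere. All 8 libraries, in 6 groups by label, entered one fit in edgeR 4.0.16 under R 4.3.3, with TMM scaling, filterByExpr and quasi-likelihood F-tests, and p-values were adjusted by Benjamini-Hochberg over 15355 genes at a threshold of 0.05. Residual degrees of freedom were 2, from the 2 hairpins of each target, a spread also taken for each single control library, with 397 prior degrees of freedom. An SE is the log2 fold change divided by the square root of F. Log2 differences between libraries used a prior count of 2. Count ratios carry 95% exact conditional binomial intervals. Intervals and floors of 3 counts cover counting error only. The overexpression pair has 1 library per arm and was not tested.

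The members and gene lists were chosen with earlier results of these data known. Named genes were all 9 members. From each other list they were at most 3 that passed in a knockdown, by size of change, or the 2 of highest level where none passed. Not every gene so named is reported here. In the vector pair they were the 2 with the largest difference among those of at least 5 CPM. Genes most like the members were the 5 with the highest r. Alternatives were DESeq2 1.42.0, limma-voom (limma 3.58.1), other scalings, filters and controls, robust estimation and each hairpin library left out.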

Additional observations from a re-analysis of the deposited data

Results flagged for a closer look

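Ppbp stood on opposite sides of the controls in the 2 knockdowns. Both hnRNPU hairpin libraries lay above their control, with 2.36 and 1.97 CPM against 0.708 CPM, and both Bloodlinc hairpin libraries lay below theirs, with 3.20 and 1.46 CPM against 4.97 CPM. The difference of the effects was 2.69 on the log2 scale with an adjusted p of 1 in edgeR's test. The hnRNPU values rest on 4 and 5 counts against 27, and the Bloodlinc values on 73 and 45 counts against 97. The control libraries of the 2 experiments lay 7.02-fold apart for Ppbp.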

How the results depend on the processing

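In every setting run, 0 of the 9 genes were called in the Bloodlinc knockdown and 0 in the difference of the knockdown effects. For that difference DESeq2 left Ppbp, Gp9, F2rl2 and Mrvi1 without an adjusted p, so it could not call them. In the hnRNPU knockdown 1 gene was called, and 0 with a filter of 5 CPM in 2 libraries, 0 with limma-voom, 2 against the other control hairpin library and 3 against all 3 controls. Leaving out each hairpin library in turn gave 0 to 1. The adjusted p of Thbs1 in edgeR was 0.346 with the 5 CPM filter, at a log2 fold change of 2.75 against 2.51 with filterByExpr, and it ran from 1.56e-08 to 1 over all settings. At least 2-fold higher with the Bloodlinc vector were 0 genes against the empty vector, 3 against all 3 controls, 5 against the Bloodlinc control hairpin library and 3 against the hnRNPU control hairpin library. The comparisons of the vector library with single control hairpins, and the settings that left out both hnRNPU hairpin libraries, were added after seeing the data. The cause was not tested.

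Calls over all genes moved more. The 19 calls of the Bloodlinc knockdown became 0 with the 5 CPM filter, limma-voom, without Bloodlinc hairpin 2 and without either or both hnRNPU hairpins, 5 with robust estimation or DESeq2, 63 without Bloodlinc hairpin 1, 1043 against the other control hairpin library and 918 against all 3 controls. The 135 calls of the hnRNPU knockdown became 8, 65 and 9 with the 5 CPM filter, robust estimation and limma-voom, 7 and 59 without hairpins 1 and 2, 2340 against the other control hairpin library and 1497 against all 3. The 50 calls of the difference became 5, 23, 3 and 22 with the 5 CPM filter, robust estimation, limma-voom and DESeq2, and 6 and 30 without hnRNPU hairpins 1 and 2.

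No paired analysis was possible because each control is a single library and shares fewer than 2 replicate numbers with the hairpins. Depth limits the hnRNPU hairpin libraries most, where a count of 0 allows up to 1.77 and 1.18 TMM CPM, while Ppbp stood there at 2.36 and 1.97 TMM CPM.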
